A study of Mus musculus with 10 samples.

Results

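Skeletal muscle fibers contract when myosin motors of the thick filament pull on thin filaments of actin, and fast and slow fibers build this machinery from different members of the same gene families. Calcium released from the sarcoplasmic reticulum by the ryanodine receptor binds troponin and frees actin for myosin, and calcium pumps then take the calcium back up. The tissues of the cochlea itself are not built of skeletal muscle, and the muscles that lie nearest to it are the tensor tympani and the stapedius of the middle ear. Expression of 36 named genes of this kind was described here in RNA-seq counts of the cochlea, of which 35 were matched by their gene name to 35 of the 54532 gene rows. Pvalb2 was not analysed here. The members were sorted by their textbook roles into 10 genes of fast fibers, 7 of slow fibers, 2 developmental myosins, 6 genes of the sarcomere and its support that fast and slow fibers share, 4 genes of calcium release and uptake, 5 of energy supply and 2 others (Rpl3l and Pvalb2).

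RNA was extracted from cochleae of mtKeima mice at the age of 12 months, which carry a transgenic fluorescent reporter of mitochondria on a mixed genetic background and, per the methods, were genotyped as wild-type for Cdh23 and Nnt. In the NR group, 5 mice drank water with 7 mg/ml (24 mM) of nicotinamide riboside (NR), a precursor of NAD, for 10 months from the age of 2 months. The 5 non-treated mice, labelled Vehicle, had plain water and carried the same reporter. The question of the comparison was which genes NR changes in the aged cochlea. Mice are numbered as in the sample labels, and NR 3 and Vehicle 3 share a number but were not treated as a pair in the main test. The p-values measure the spread between these 10 mice.

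Between 17060379 (NR 5) and 24419230 (Vehicle 3) reads were counted on genes per mouse, and levels are given as CPM, the usual unit of read counts scaled to library size, here after TMM scaling. The label of the tissue went with its markers, since Coch had 2612 ± 571 CPM in NR-treated and 2981 ± 799 CPM in non-treated mice (SD, n = 5 each). The labels call the mice female and the methods male. Xist had 48 reads over all 10 mice and the Y-linked Ddx3y 15742, which goes against the label female.

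The fiber genes took between 0.0190% and 0.0299% of the reads in 8 of the 10 mice, but 0.151% in NR 3 and 0.135% in NR 5. Their summed level was 188, 240.3, 1495, 298 and 1335 CPM in NR 1 to NR 5 and 294, 215, 239.8, 217 and 229 CPM in Vehicle 1 to Vehicle 5. Thus NR 3 and NR 5 stood apart from the other 8 mice, and the other 3 NR-treated mice lay within or close to the range of the non-treated mice. The 2 highest values were those of NR 3 and NR 5 for 23 of the 30 members that passed the filter on low counts, and the same order was found in 4.02% of all 18329 genes tested. These 2 mice were picked by the summed level of the same members. The count thus follows in part from that choice and is a description only. In bulk tissue, a larger number of cells of a type and more RNA per cell cannot be told apart.

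**Figure D1:**
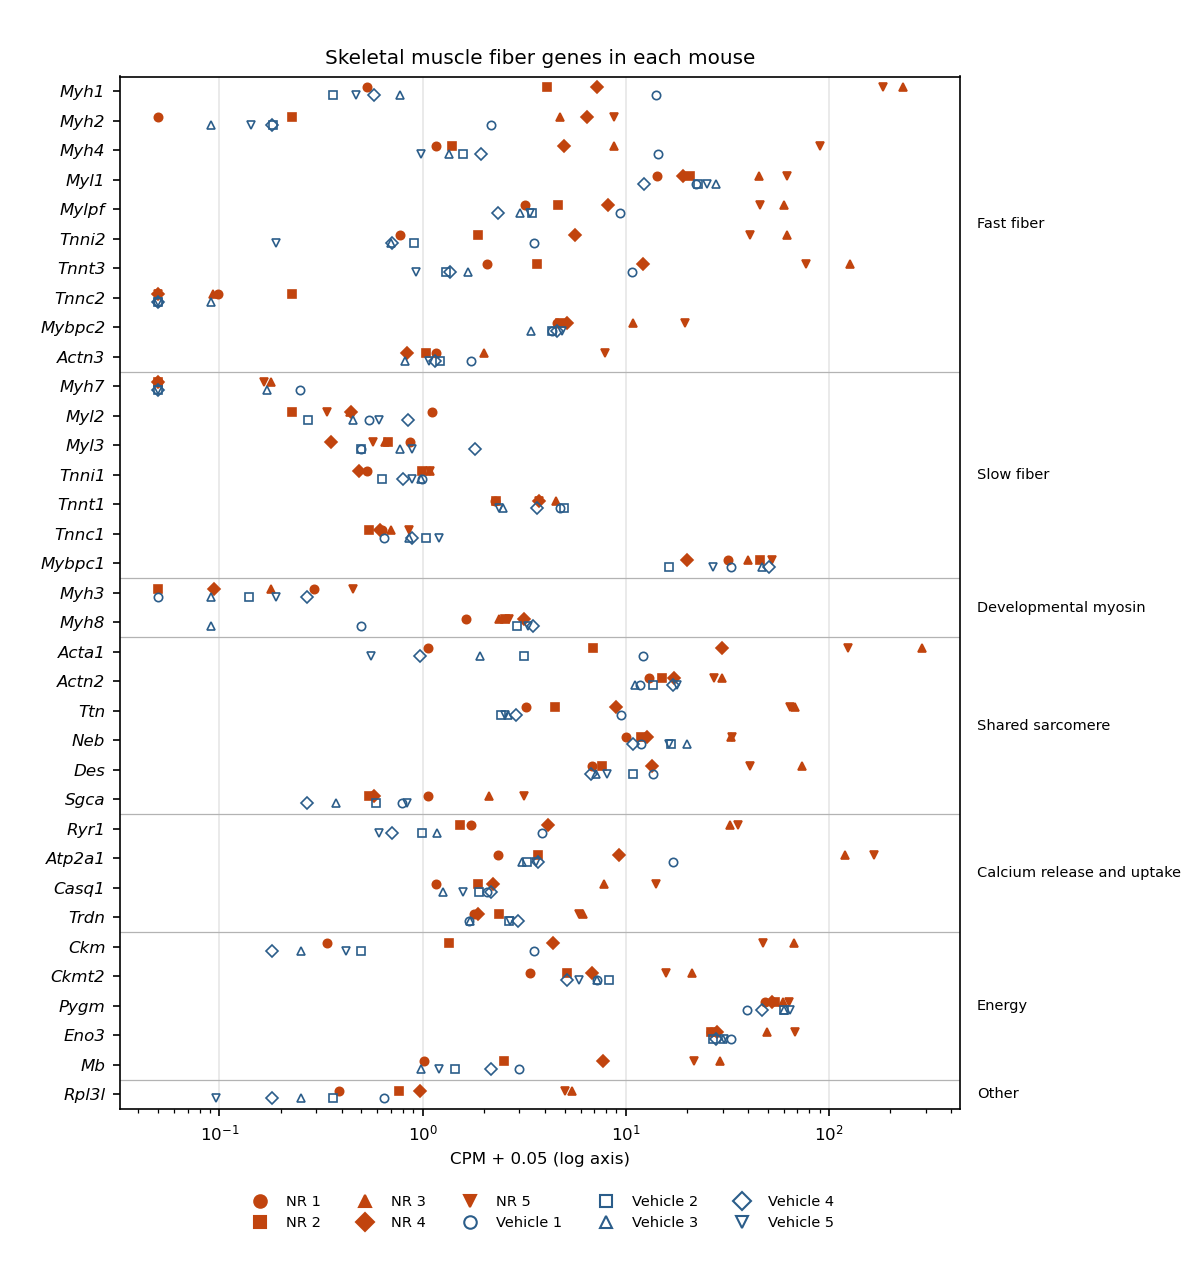
Level of each of the 35 fiber genes in each mouse, in CPM with 0.05 added so that 0 can be drawn on the log axis. Filled symbols are NR-treated and open symbols non-treated mice, and the shape gives the number of the mouse. NR 3 and NR 5 lie to the right of the other mice for most fast fiber, shared sarcomere and calcium genes, while the slow fiber genes show no such split.

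At an unadjusted p of 0.05, the threshold of the study, 15 of the 30 tested members were higher in NR-treated mice and 0 were lower in the edgeR quasi-likelihood test. The same test called 4.83% of all genes higher and 4.88% lower. After Benjamini-Hochberg adjustment over all genes 0 members passed 0.05 (0.0% of all genes did), and the smallest adjusted p of a member was 0.408 (Rpl3l, edgeR). With DESeq2, 17 of the 34 members it tested and 3.5% of all genes were higher at an unadjusted p of 0.05, and 3 of these members passed an adjusted p of 0.05, where 0.157% of all genes did so in that direction. These were Rpl3l (DESeq2 adjusted p = 0.0131), Acta1 (DESeq2 adjusted p = 0.0444) and Tnni2 (DESeq2 adjusted p = 0.0447). With limma-voom, 1 of the 30 members (Rpl3l) was higher at an unadjusted p of 0.05, a share below the 5.13% of all genes, and 0 passed the adjusted threshold. For 0 members did all NR-treated mice lie above all non-treated mice, an order found in 0.769% of all genes, and for 0 did all lie below, as in 0.878% of genes. The median log2 fold change was 1.29 over the 30 tested members and -0.0092 over all genes.

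The filter on low counts passed 7 members that had under 10 reads in at least 1 non-treated mouse, and 5 of these were among the 15 called. When every gene with a read (33224) was fitted, all 35 members were tested, and 18 of them were higher and 0 lower at an unadjusted p of 0.05, where 4.26% and 3.21% of genes were. An exact two-sided permutation test of the mean log2 CPM over all labelings of the mice, which cannot give a p under 0.00794, put 4 of the 30 tested members at or below 0.05, against 8.51% of all genes. By this exact test they were Rpl3l (p = 0.0159), Mybpc2 (p = 0.0397) and Ryr1 (p = 0.0476), which had the higher mean in NR-treated mice, and Tnnc1 (p = 0.0476), which had the lower.

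The calls rested on NR 3 and NR 5. Without these 2 mice, a choice made after their levels had been seen, 0 of the fiber genes were higher in NR-treated mice at an unadjusted p of 0.05 and 1 was lower (Tnnc1, edgeR adjusted p = 0.914), where 2.46% and 2.04% of all genes were. Of the 31 members tested in that fit, 16 had a positive and 15 a negative log2 fold change, and the median was 0.0008. Vehicle 1 had the highest level of many fiber genes among the non-treated mice. Without Vehicle 1 as well, 7 members were higher (Myh1, Mylpf, Tnni2, Tnnt3, Acta1, Ttn and Ryr1) and 1 was lower (Tnnc1), where 3.52% of all genes were higher and 2.48% lower. With 29 members tested in that fit, the 1 lower member was a share near that of all genes. Vehicle 1 was left out for its high levels of these same members. The 7 calls thus follow in part from that choice and are a description only. Ckm and Rpl3l were not tested in that fit.

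**Figure D2:**
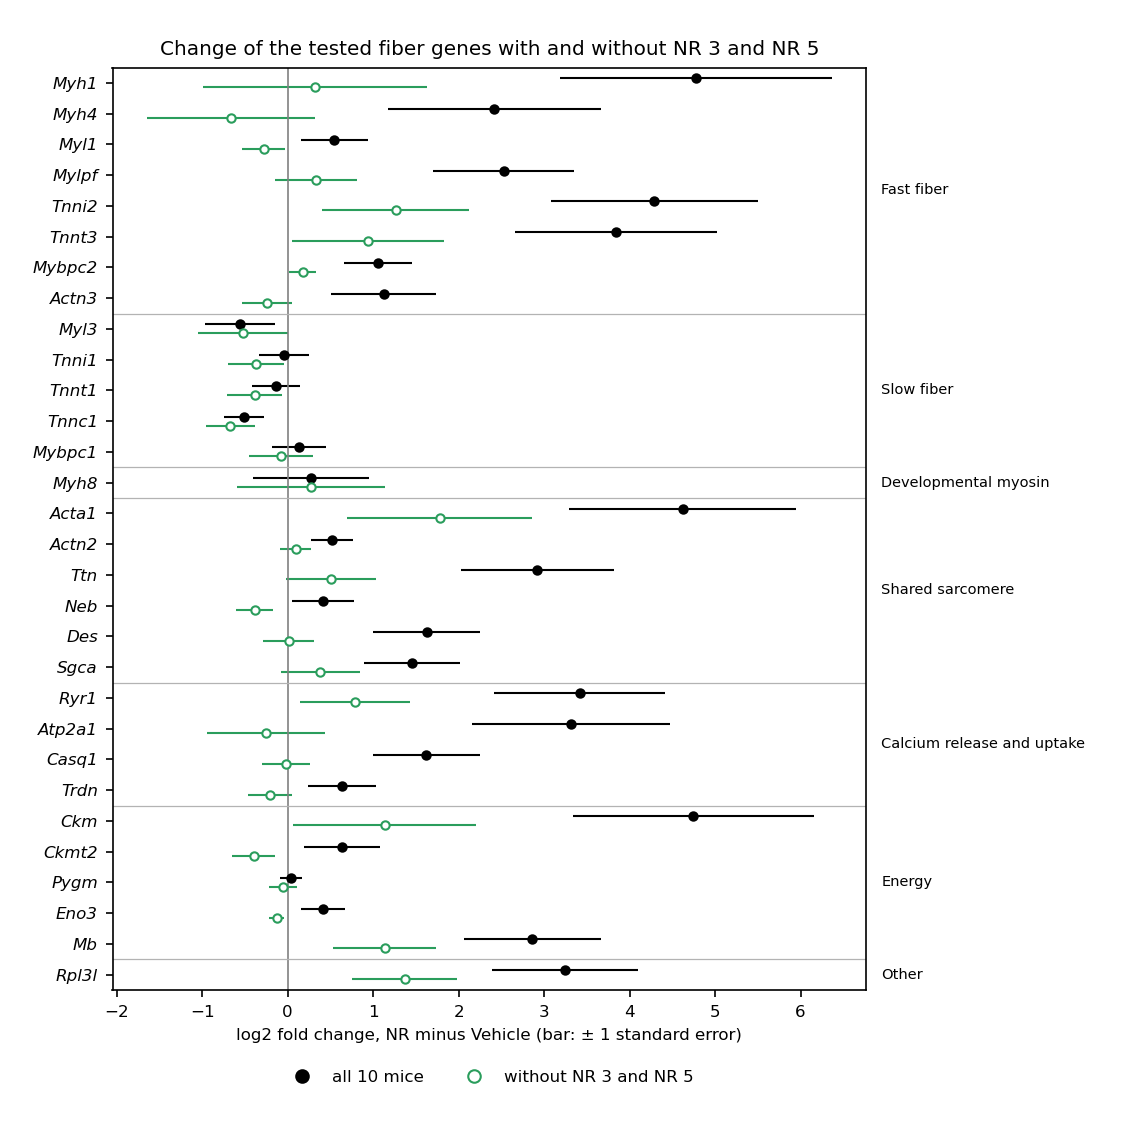
Log2 fold change of the 30 tested fiber genes, NR-treated against non-treated mice, from edgeR with all 10 mice (black) and without NR 3 and NR 5 (green, open), with bars of 1 standard error. With all mice 15 genes are higher at an unadjusted p of 0.05, and without NR 3 and NR 5 none of these 15 is.

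Promoters are shown for 4 members that stood for the different patterns across mice. Acta1 and Myh1 were highest in NR 3 and NR 5, Myh2 had its second highest level in NR 4, and the slow gene Tnnc1 was low and even. The 250 bases before the RefSeq start site are given 5′ to 3′ along the strand of the gene (GRCm38.p6), with matches to the motifs searched in capitals.
Acta1 (chr8:123894776-123895025, minus strand): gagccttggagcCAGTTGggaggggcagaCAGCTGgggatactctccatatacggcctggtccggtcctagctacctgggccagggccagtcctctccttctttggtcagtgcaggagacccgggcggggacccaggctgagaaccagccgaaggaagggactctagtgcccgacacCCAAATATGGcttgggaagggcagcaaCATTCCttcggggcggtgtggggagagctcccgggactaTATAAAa
Myh1 (chr11:67199852-67200101, plus strand): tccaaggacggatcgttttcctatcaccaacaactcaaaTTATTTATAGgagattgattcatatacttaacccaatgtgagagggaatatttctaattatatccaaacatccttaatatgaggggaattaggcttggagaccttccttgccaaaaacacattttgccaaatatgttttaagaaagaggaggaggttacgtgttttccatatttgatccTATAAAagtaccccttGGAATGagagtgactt
Myh2 (chr11:67170777-67171026, plus strand): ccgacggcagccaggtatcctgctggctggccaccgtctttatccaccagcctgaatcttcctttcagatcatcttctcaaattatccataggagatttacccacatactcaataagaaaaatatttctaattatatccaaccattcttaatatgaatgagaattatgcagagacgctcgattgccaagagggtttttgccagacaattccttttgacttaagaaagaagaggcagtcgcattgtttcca
Tnnc1 (chr14:31208062-31208311, plus strand): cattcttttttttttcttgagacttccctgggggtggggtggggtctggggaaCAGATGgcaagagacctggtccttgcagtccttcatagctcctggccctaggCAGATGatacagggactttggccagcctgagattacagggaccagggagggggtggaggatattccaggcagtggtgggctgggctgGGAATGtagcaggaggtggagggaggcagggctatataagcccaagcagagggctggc
The motifs, searched on both strands, were the TATA box (TATAAA), the E-box (CANNTG) bound by myogenic factors such as MyoD, the MCAT element (CATTCC) bound by TEAD factors, the MEF2 site and the CArG box of serum response factor. In Myh1 the MEF2 site overlapped a TATA box match, and the Myh2 window held 0 matches. Of the 30 members with a RefSeq promoter, 21 had a start site within 100 bases of the start in the deposited annotation.

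An E-box lay in 27 of these 30 promoters and in 66.0% of all 27025. The MCAT element was found in 9 members and 12.6% of all promoters, the TATA box in 8 and 13%, the MEF2 site in 4 (Myh1, Myh4, Myh8 and Ttn) and 1.73%, and the CArG box in 3 (Myh4, Myl3 and Acta1) and 1.4%. The E-box was held by 7 of 7 slow and 5 of 7 fast members with a promoter. A match of letters is a description of the window and was not tested for binding.

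Of the 8 fast fiber genes that were tested, 5 were higher at an unadjusted p of 0.05 (Myh1, Mylpf, Tnni2, Tnnt3 and Mybpc2), with a median log2 fold change of 2.47 over the 8. Their summed level was 27.4, 42.2, 553, 69.3 and 537 CPM in NR 1 to NR 5 and 82.2, 35.6, 39.3, 24.8 and 36.6 CPM in Vehicle 1 to Vehicle 5.

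Myh1 (ENSMUSG00000056328, chromosome 11, 67200052 to 67224575, plus strand) encodes the myosin heavy chain of type IIX fibers. Its level was 0.482, 4.07, 231, 7.21 and 184 CPM in NR 1 to NR 5 and 14.1, 0.314, 0.728, 0.529 and 0.418 CPM in Vehicle 1 to Vehicle 5. NR 3 and NR 5 were far above every other mouse, Vehicle 1 came next, and the groups overlapped. The means were 85.4 ± 113 CPM in NR-treated and 3.22 ± 6.08 CPM in non-treated mice (SD, n = 5 each), so the spread in the NR group exceeded its mean (log2 fold change 4.77 ± 1.59 (SE), edgeR adjusted p = 0.436, exact permutation p = 0.111). Leaving out Vehicle 1 raised the log2 fold change to 7.39, and leaving out NR 3 lowered it to 3.97.

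Myh4 (ENSMUSG00000057003, chromosome 11, 67238029 to 67260446, plus strand), the heavy chain of type IIB fibers, was at 1.11, 1.34, 8.74, 4.93 and 90.2 CPM in the NR-treated and 14.3, 1.53, 1.29, 1.896 and 0.929 CPM in the non-treated mice, in the order of their numbers. NR 5 stood alone at the top, and Vehicle 1 was above NR 3. The difference did not pass the threshold (log2 fold change 2.42 ± 1.25 (SE), edgeR adjusted p = 0.558, exact permutation p = 0.365), and the log2 fold change was 0.04 without NR 5 and 3.90 without Vehicle 1, where it passed the unadjusted threshold.

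Myh2 (ENSMUSG00000033196, chromosome 11, 67171027 to 67197517, plus strand), the heavy chain of type IIA fibers, had 462 reads in all and did not pass the filter. It was at 0, 0.179, 4.67, 6.42 and 8.74 CPM in the NR-treated and 2.13, 0.135, 0.0405, 0.132 and 0.0929 CPM in the non-treated mice. Here NR 4 was between NR 3 and NR 5, and Vehicle 1 was the highest non-treated mouse. It passed the unadjusted threshold when every gene with a read was fitted (log2 fold change 3.03 ± 1.15 (SE), edgeR adjusted p = 0.620, exact permutation p = 0.143).

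The mix of these 3 adult fast myosins, neighbours on chromosome 11, differed from mouse to mouse. Shares of their summed reads are given with exact Clopper-Pearson 95% intervals, which cover counting error only. Myh1 made up 94.5% (93.9% to 95.1%) of 5649 reads in NR 3 but 65.1% (63.7% to 66.4%) of 4896 reads in NR 5, where Myh4 took 31.8% (30.5% to 33.2%). So the 2 mice with the most fiber reads had different myosin mixes, with intervals that did not meet.

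Myh2 had its highest share of the 10 mice in NR 4, 34.6% (30.1% to 39.3%) of 425 reads, beside 38.8% (34.2% to 43.6%) of Myh1 and 26.6% (22.4% to 31.1%) of Myh4. In Vehicle 1, Myh1 took 46.2% (42.2% to 50.2%) and Myh4 46.8% (42.8% to 50.9%) of 615 reads. Of the 6 other mice, which had 31 to 125 reads, 5 had Myh4 as the majority, from 62.7% in Vehicle 3 to 77.3% in Vehicle 2, and NR 2 had Myh1 with 72.8% (64.1% to 80.4%). The coding sequences of these genes are alike, and reads that fit several places were not counted, so the shares describe reads unique to each gene.

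**Figure D3:**
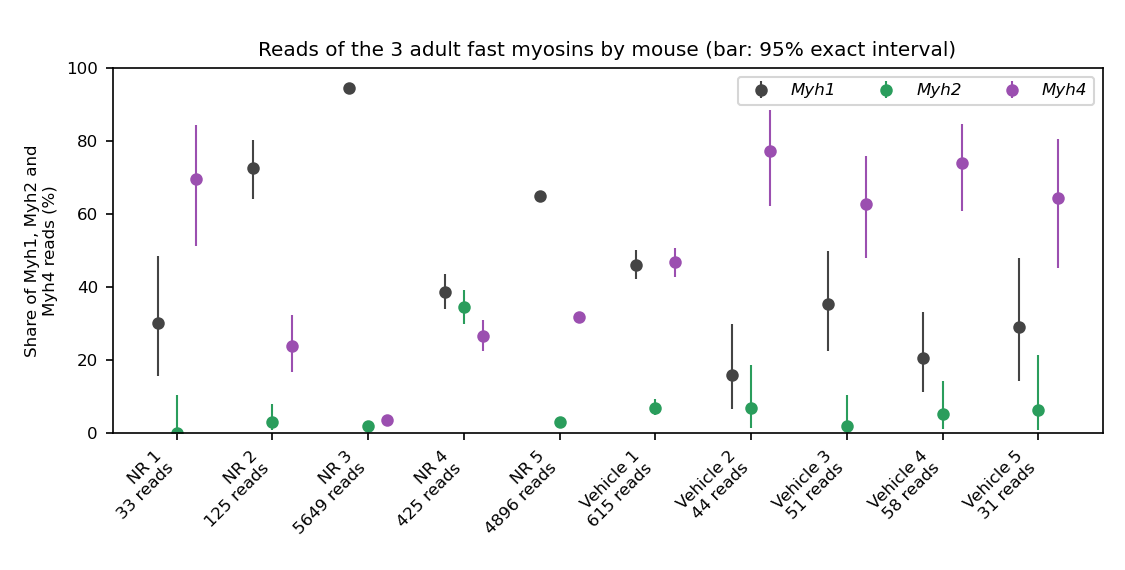
Share of Myh1, Myh2 and Myh4 in their summed reads in each mouse, in percent, with exact 95% intervals and the number of reads under each name. Myh1 leads in NR 2, NR 3 and NR 5, Myh4 leads in 5 mice with few reads, and NR 4 and Vehicle 1 are mixed.

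Mylpf (ENSMUSG00000030672, chromosome 7, 127208890 to 127214298, plus strand) encodes the regulatory light chain of fast myosin. It was at 3.13, 4.61, 60.4, 8.12 and 45.9 CPM in the NR-treated and 9.28, 3.41, 2.95, 2.29 and 3.34 CPM in the non-treated mice (log2 fold change 2.53 ± 0.82 (SE), edgeR adjusted p = 0.436, exact permutation p = 0.103). NR 3 and NR 5 were the highest and Vehicle 1 came next. Myl1, the essential light chain of fast fibers, had a higher base level, with 32.2 ± 20.5 CPM in NR-treated and 21.98 ± 5.85 CPM in non-treated mice (SD, n = 5 each). NR 5 and NR 3 were again the highest at 62.05 and 45.04 CPM, while NR 1, NR 2 and NR 4 lay between 14.2 and 20.7 CPM, within the non-treated range of 12.3 to 27.8 CPM (log2 fold change 0.55 ± 0.39 (SE), edgeR adjusted p = 0.664, exact permutation p = 0.452).

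Troponin I of fast fibers, Tnni2 (ENSMUSG00000031097, chromosome 7, 142441808 to 142444410, plus strand), holds actin inactive between contractions. Its level was 0.723, 1.83, 62.4, 5.59 and 41.04 CPM in NR 1 to NR 5 and 3.48, 0.853, 0.647, 0.661 and 0.139 CPM in Vehicle 1 to Vehicle 5. NR 4 came next, above Vehicle 1, and the groups overlapped in NR 1 and NR 2 (log2 fold change 4.29 ± 1.21 (SE), edgeR adjusted p = 0.420, exact permutation p = 0.0556). Tnnt3 (ENSMUSG00000061723, chromosome 7, 142498836 to 142516009, plus strand), the troponin T that ties the complex to tropomyosin, followed the same order with 2.02, 3.62, 128, 12.1 and 77.3 CPM against 10.7, 1.26, 1.62, 1.32 and 0.882 CPM (log2 fold change 3.84 ± 1.18 (SE), edgeR adjusted p = 0.423, exact permutation p = 0.0556).

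Mybpc2, the fast form of myosin-binding protein C, was at 4.53, 4.698, 10.8, 5.07 and 19.5 CPM in the NR-treated and 4.27, 4.31, 3.36, 4.54 and 4.83 CPM in the non-treated mice. The non-treated mice were close together, NR 3, NR 4 and NR 5 lay above all of them, and NR 1 and NR 2 lay within their range (log2 fold change 1.06 ± 0.40 (SE), edgeR adjusted p = 0.468, exact permutation p = 0.0397). Without NR 5 the log2 fold change was 0.57 and the call was lost. Actn3, the alpha-actinin of fast Z-discs, reached 7.87 CPM in NR 5 and lay between 0.769 and 1.95 CPM in the other 9 mice (log2 fold change 1.12 ± 0.61 (SE), edgeR adjusted p = 0.577, exact permutation p = 0.468), with a log2 fold change of 0.09 without NR 5.

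Tnnc2, the calcium sensor of fast troponin, had 7 reads over all 10 mice and was at 0 in 6 of them, so its level could not be compared. NR 3 had 1 read of Tnnc2 beside 2950 of Tnnt3 and 1441 of Tnni2. In the GENCODE annotation of the same build, 74.0% of its exon bases lie opposite exons of Ube2c, and the counting did not use strand and left out reads that fell on both genes. The part of this overlap in the low count was not tested. Other members also share exon bases with a gene on the other strand, 17 in all, but over 20% only in Tnnc2, Mb (31.9%) and Atp2a1 (21.9%, opposite Rabep2), where reads of the genes cannot be told apart.

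Of the 5 slow fiber genes that were tested, 0 were called in either direction, 1 had a positive log2 fold change, and the median was -0.13. Their summed level was 37.01, 50.4, 47.3, 25.4 and 58.9 CPM in NR 1 to NR 5 and 40.5, 23.5, 52.04, 58.2 and 32.4 CPM in Vehicle 1 to Vehicle 5, with NR 3 within the non-treated range and NR 5 just above it. Most of this sum was Mybpc1, the slow form of myosin-binding protein C. The difference between the changes of fast and slow genes was not tested.

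Mybpc1 (ENSMUSG00000020061, chromosome 10, 88518279 to 88605152, minus strand) was at 31.9, 45.9, 39.98, 19.96 and 52.4 CPM in the NR-treated and 33.1, 16.3, 46.6, 50.4 and 26.7 CPM in the non-treated mice. No mouse stood apart and the groups overlapped over nearly their whole range (log2 fold change 0.13 ± 0.31 (SE), edgeR adjusted p = 0.903, exact permutation p = 0.659). Tnnt1, the troponin T of slow fibers, had 3.27 ± 1.01 CPM in NR-treated and 3.59 ± 1.22 CPM in non-treated mice (SD, n = 5 each) (log2 fold change -0.13 ± 0.28 (SE), edgeR adjusted p = 0.891, exact permutation p = 0.595). Tnni1, the slow troponin I, lay between 0.437 and 1.04 CPM over all mice (log2 fold change -0.04 ± 0.29 (SE), edgeR adjusted p = 0.973, exact permutation p = 0.770).

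Tnnc1 (ENSMUSG00000091898, chromosome 14, 31208312 to 31211729, plus strand), the calcium sensor of slow and cardiac troponin, was the member nearest to a lower level in NR-treated mice. It was at 0.578, 0.492, 0.649, 0.568 and 0.8103 CPM in NR 1 to NR 5 and 0.596, 0.988, 0.809, 0.838 and 1.16 CPM in Vehicle 1 to Vehicle 5. Vehicle 1 lay among the lower NR-treated mice, and NR 5, the highest of its group, was level with Vehicle 3. The test did not pass 0.05 (log2 fold change -0.51 ± 0.23 (SE), edgeR adjusted p = 0.517, exact permutation p = 0.0476), but the unadjusted threshold was passed without NR 5 (log2 fold change -0.61) and without Vehicle 1 (also -0.61).

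The light chains of slow and ventricular myosin were low. Myl3 had 0.576 ± 0.186 CPM in NR-treated and 0.845 ± 0.541 CPM in non-treated mice (SD, n = 5 each) (log2 fold change -0.56 ± 0.41 (SE), edgeR adjusted p = 0.675, exact permutation p = 0.357), and its highest mouse was Vehicle 4 at 1.76 CPM. Myl2 had 104 reads in all and did not pass the filter, with 0.462 ± 0.346 CPM in NR-treated and 0.495 ± 0.209 CPM in non-treated mice (SD, n = 5 each). Myh7, the heavy chain of slow fibers and ventricle, had 12 reads over the 10 mice and was at 0 in 6 of them, and its highest value was 0.199 CPM in Vehicle 1.

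Fast and slow partner genes were set against each other per kb of exon, as the ratio of CPM per kb in each mouse. Tnni2 over Tnni1 was 3.61, 4.695, 144, 30.8 and 94.7 in NR 1 to NR 5 and 8.86, 3.51, 1.67, 2.12 and 0.401 in Vehicle 1 to Vehicle 5. Tnnt3 over Tnnt1 was 1.27, 2.26, 39.5, 4.55 and 29.1 and 3.17, 0.358, 0.928, 0.509 and 0.529. For troponin I and troponin T the fast form was far above the slow form in NR 3 and NR 5, and for troponin T the slow form was the higher in 4 of the non-treated mice. Troponin C went the other way, with Tnnc2 over Tnnc1 below 1 in all 10 mice, at 0.0868 in NR 3 and 0 in NR 5, but it rests on the 7 reads of Tnnc2 described above and is not drawn in the plot of partner ratios.

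Mylpf exceeded Myl2 in all 10 mice, by 5.30 times in Vehicle 4 up to 291 times in NR 5. Myl1 exceeded Myl3 in all 10 as well, by 6.87 times in Vehicle 4 up to 117 times in NR 5. Mybpc2 was below Mybpc1 in every mouse, with ratios from 0.0903 in Vehicle 3 to 0.467 in NR 5. The log2 ratio of summed fast to summed slow CPM was 3.55 in NR 3 and 3.19 in NR 5, 1.45 in NR 4, 1.02 in Vehicle 1 and between -1.23 and 0.60 in the other 6 mice. With Mybpc1 left out of the slow sum it was positive in all 10 mice, from 1.68 in Vehicle 4 to 6.37 in NR 5, so the negative values in 4 mice depended on Mybpc1. By the ratio of mean log2 levels NR 4 and Vehicle 1 also came after NR 3 and NR 5, which were at 3.42 and 3.94.

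**Figure D4:**
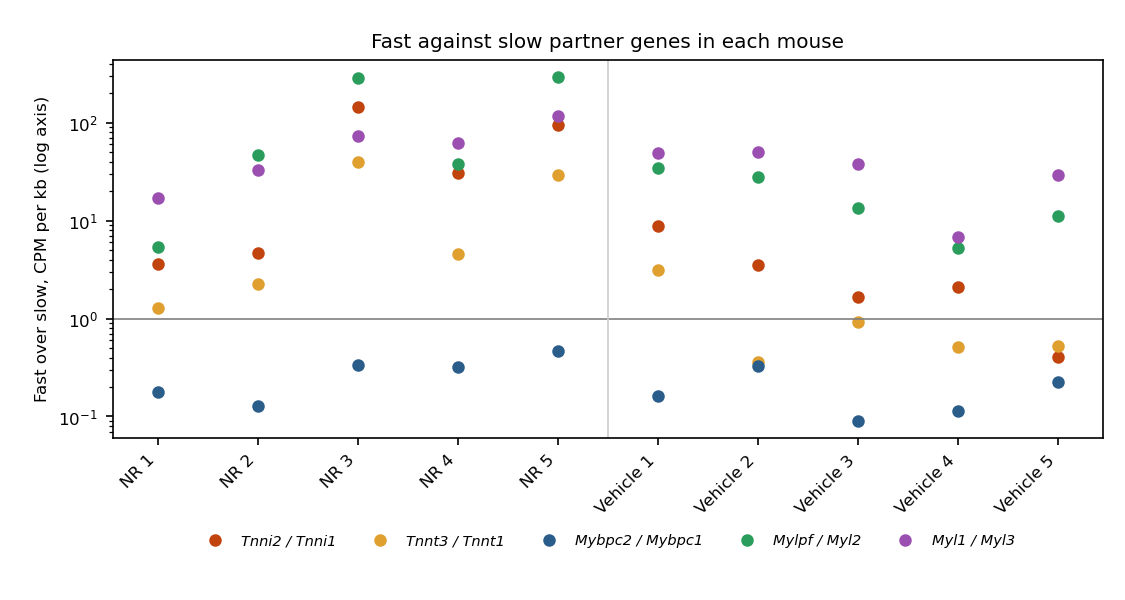
Ratio of the fast to the slow partner gene in each mouse, in CPM per kb of exon on a log axis, for 5 pairs, with troponin C left out. The line at 1 marks equal levels. The ratios of all 5 pairs are highest in NR 3 and NR 5. For Mybpc2 over Mybpc1, NR 3 (0.339) is little above Vehicle 2 (0.331), and this ratio stays under 1 in all 10 mice.

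The developmental myosins showed another pattern. Myh8 (ENSMUSG00000055775, chromosome 11, 67277124 to 67308634, plus strand), the heavy chain of newborn fibers, was at 1.59, 2.51, 2.34, 3.101 and 2.605 CPM in the NR-treated and 0.447, 2.87, 0.0405, 3.44 and 3.25 CPM in the non-treated mice. The low mice were Vehicle 1 and Vehicle 3, and NR 3 and NR 5 lay within the range of the others (log2 fold change 0.27 ± 0.68 (SE), edgeR adjusted p = 0.907, exact permutation p = 0.437). Without Vehicle 3 the log2 fold change was -0.03. Myh3, the embryonic heavy chain, had 27 reads over all mice and at most 0.405 CPM, in NR 5.

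Of the 6 sarcomere genes that fast and slow fibers share, 4 were higher at an unadjusted p of 0.05 (Acta1, Ttn, Des and Sgca) and the median log2 fold change was 1.54. All 6 had their 2 highest levels in NR 3 and NR 5. Acta1 (ENSMUSG00000031972, chromosome 8, 123891769 to 123894751, minus strand), skeletal muscle actin, had the highest mean level per kb of all members, 30.4 CPM per kb over the 10 mice, although its median over the mice was 3.24 CPM per kb.

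Acta1 was at 1.01, 6.85, 287, 29.6 and 124 CPM in NR 1 to NR 5 and 12.2, 3.098, 1.86, 0.926 and 0.511 CPM in Vehicle 1 to Vehicle 5. NR 4 and Vehicle 1 came next, and NR 1 lay among the lowest mice (log2 fold change 4.62 ± 1.32 (SE), edgeR adjusted p = 0.420, exact permutation p = 0.0714). Ttn (ENSMUSG00000051747, chromosome 2, 76703980 to 76982547, minus strand), the giant spring protein of the sarcomere, was at 3.18, 4.43, 67.8, 8.91 and 63.96 CPM against 9.38, 2.38, 2.59, 2.82 and 2.51 CPM. There was little difference between NR 3 and NR 5 here, and the other NR-treated mice were at or below Vehicle 1 (log2 fold change 2.92 ± 0.90 (SE), edgeR adjusted p = 0.423, exact permutation p = 0.0635).

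Des, the intermediate filament desmin that links Z-discs, was at 6.79, 7.56, 74.1, 13.4 and 40.7 CPM in the NR-treated and 13.6, 10.8, 7.12, 6.702 and 8.08 CPM in the non-treated mice (log2 fold change 1.63 ± 0.62 (SE), edgeR adjusted p = 0.476, exact permutation p = 0.222). Its call was lost without NR 3 (log2 fold change 0.89), without NR 5 (1.47) and without Vehicle 4 (1.53). Sgca, the alpha-sarcoglycan of the muscle membrane, was at 1.01, 0.492, 2.08, 0.524 and 3.13 CPM against 0.745, 0.539, 0.324, 0.2204 and 0.789 CPM (log2 fold change 1.45 ± 0.56 (SE), edgeR adjusted p = 0.476, exact permutation p = 0.111). For Sgca the call was lost without NR 3 (log2 fold change 1.28), NR 5 (0.99), Vehicle 3 (1.33) or Vehicle 4 (1.26).

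Neb, nebulin of the thin filament, and Actn2, the alpha-actinin of all Z-discs, had a base level that moved less. Neb was at 32.8 CPM in NR 3 and 33.2 CPM in NR 5 and between 9.93 and 19.9 CPM in the other mice (log2 fold change 0.41 ± 0.36 (SE), edgeR adjusted p = 0.717, exact permutation p = 0.508). Actn2 was at 29.9 and 27.3 CPM in these 2 mice and between 11.1 and 17.8 CPM in the others (log2 fold change 0.52 ± 0.24 (SE), edgeR adjusted p = 0.524, exact permutation p = 0.159).

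Of the 4 genes of calcium release and uptake, 3 were higher at an unadjusted p of 0.05 (Ryr1, Atp2a1 and Casq1), with a median log2 fold change of 2.47. Their summed level was 6.84, 9.31, 167, 17.3 and 222 CPM in NR 1 to NR 5 and 24.6, 8.62, 7.04, 9.35 and 8.31 CPM in Vehicle 1 to Vehicle 5. All 4 had their 2 highest levels in NR 3 and NR 5.

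Ryr1 (ENSMUSG00000030592, chromosome 7, 29003344 to 29125179, minus strand), the calcium release channel of skeletal muscle, was at 1.69, 1.48, 32.7, 4.105 and 35.7 CPM in the NR-treated and 3.82, 0.943, 1.13, 0.661 and 0.557 CPM in the non-treated mice. Only Vehicle 1 among the non-treated mice lay above the lowest NR-treated mice, and NR 4 came after NR 3 and NR 5 (log2 fold change 3.42 ± 1.00 (SE), edgeR adjusted p = 0.423, exact permutation p = 0.0476). Atp2a1 (ENSMUSG00000030730, chromosome 7, 126445858 to 126463108, minus strand), the calcium pump of fast fibers, was at 2.31, 3.67, 120.4, 9.17 and 166 CPM against 17.1, 3.23, 3.03, 3.66 and 3.58 CPM. Vehicle 1 came next, above NR 4, and NR 1 was the lowest of all mice (log2 fold change 3.31 ± 1.16 (SE), edgeR adjusted p = 0.453, exact permutation p = 0.254).

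Without NR 3 and NR 5 the log2 fold change of Atp2a1 was -0.25 ± 0.69 (SE), and that of Casq1 was -0.01 ± 0.28 (SE). Casq1, the calcium store protein calsequestrin of fast fibers, was at 1.11, 1.83, 7.79, 2.18 and 14.1 CPM in the NR-treated and 2.04, 1.84, 1.21, 2.12 and 1.53 CPM in the non-treated mice (log2 fold change 1.62 ± 0.63 (SE), edgeR adjusted p = 0.476, exact permutation p = 0.270). Its call was lost without NR 3 (log2 fold change 1.46), NR 5 (0.90) or Vehicle 3 (1.52). Trdn, triadin, which anchors calsequestrin to the release channel, was at 6.14 CPM in NR 3 and 5.85 CPM in NR 5 and between 1.64 and 2.91 CPM in the others (log2 fold change 0.64 ± 0.39 (SE), edgeR adjusted p = 0.627, exact permutation p = 0.373).

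Of the 5 genes of energy supply, 2 were higher at an unadjusted p of 0.05 (Ckm and Mb), and the median log2 fold change was 0.64. Ckm (ENSMUSG00000030399, chromosome 7, 19404776 to 19422841, plus strand), the muscle creatine kinase, was at 0.289, 1.297, 67.6, 4.32 and 47.5 CPM in NR 1 to NR 5 and 3.48, 0.449, 0.202, 0.132 and 0.371 CPM in Vehicle 1 to Vehicle 5. The levels in NR 3 and NR 5 were more than 10 times above the next mouse, NR 4, and NR 1 lay within the low range of Vehicle 2 to Vehicle 5 (log2 fold change 4.75 ± 1.41 (SE), edgeR adjusted p = 0.423, exact permutation p = 0.0794). Mb (ENSMUSG00000018893, chromosome 15, 77015487 to 77050670, minus strand), myoglobin, the oxygen store of muscle, was at 0.964, 2.46, 29.2, 7.64 and 21.6 CPM against 2.93, 1.39, 0.931, 2.12 and 1.16 CPM, with NR 4 next after NR 3 and NR 5, and NR 1 near the lowest (log2 fold change 2.86 ± 0.80 (SE), edgeR adjusted p = 0.420, exact permutation p = 0.0952).

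Ckmt2, the mitochondrial creatine kinase of muscle, was at 21.2 CPM in NR 3 and 15.8 CPM in NR 5, and between 3.33 and 8.22 CPM in the other mice (log2 fold change 0.64 ± 0.44 (SE), edgeR adjusted p = 0.659, exact permutation p = 0.524). Eno3, the muscle form of enolase, was at 49.7 and 67.9 CPM in these 2 mice and between 26.3 and 33.0 CPM in the others (log2 fold change 0.42 ± 0.26 (SE), edgeR adjusted p = 0.623, exact permutation p = 0.429). Pygm, the muscle glycogen phosphorylase, was the steadiest member, with 39.3 to 64.3 CPM over all mice and 55.6 ± 5.81 CPM in NR-treated and 54.1 ± 10.5 CPM in non-treated mice (SD, n = 5 each) (log2 fold change 0.04 ± 0.13 (SE), edgeR adjusted p = 0.937, exact permutation p = 0.730). Pygm and Eno3 also had the highest median levels per kb of all members, 17.6 and 16.8 CPM per kb.

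Rpl3l (ENSMUSG00000002500, chromosome 17, 24727820 to 24736143, plus strand), a ribosomal protein paralog of striated muscle, had the smallest edgeR p-value of the members. It was at 0.337, 0.716, 5.41, 0.917 and 4.98 CPM in the NR-treated and 0.596, 0.314, 0.202, 0.132 and 0.0464 CPM in the non-treated mice. In 4 of 5 NR-treated mice it was above every non-treated mouse, and NR 1 was passed by Vehicle 1 only (log2 fold change 3.25 ± 0.86 (SE), edgeR adjusted p = 0.408, exact permutation p = 0.0159). Without NR 3 and NR 5 its log2 fold change was 1.37 ± 0.61 (SE) with an edgeR adjusted p of 0.914. Rpl3l had 283 reads in all, and 1 non-treated mouse was at 0.0464 CPM.

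The spread between mice thus differed widely within the set. The highest mouse was less than 5 times the lowest for 9 members (Pygm, Tnnt1, Tnnc1, Tnni1, Eno3, Actn2, Mybpc1, Neb and Trdn) and more than 20 times for 13, while 4 members had a mouse at 0. Of the 23 members with NR 3 and NR 5 on top, 13 were higher in NR 3 and 10 in NR 5, and the next mouse was NR 4 for 9 and Vehicle 1 for 8.

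Lists of further skeletal muscle genes held 88 genes, of which 69 passed the filter. At an unadjusted p of 0.05, 18 of the 69 were higher and 3 lower, and the median log2 fold change of the 69 was 0.15. Of all genes 4.83% were higher and 4.88% lower, so the share of lower genes was near that of all genes. The same shares stand beside the counts of each list below. In the fit of every gene with a read 4.26% of genes were higher. Of 21 tested genes of the Z-disc, M-band and thin filament 10 were higher, among them Tcap, the titin cap (log2 fold change 1.32 ± 0.34 (SE), edgeR adjusted p = 0.408), Nrap (log2 fold change 2.64 ± 0.83 (SE), edgeR adjusted p = 0.427) and the M-band gene Myom2 (log2 fold change 1.88 ± 0.61 (SE), edgeR adjusted p = 0.434). The most abundant gene of that list, the tropomyosin Tpm1, had 223 ± 27.96 CPM in NR-treated and 179 ± 29.9 CPM in non-treated mice (SD, n = 5 each) (log2 fold change 0.31 ± 0.12 (SE), edgeR adjusted p = 0.476).

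Of 11 tested genes of calcium handling 3 were higher, which were Casq2, the calsequestrin of slow fibers and heart (log2 fold change 0.93 ± 0.27 (SE), edgeR adjusted p = 0.423), the histidine-rich calcium binding protein Hrc (log2 fold change 1.98 ± 0.61 (SE), edgeR adjusted p = 0.423) and the junctophilin Jph2 (log2 fold change 0.66 ± 0.25 (SE), edgeR adjusted p = 0.476). The most abundant, the slow and cardiac calcium pump Atp2a2, had 445 ± 25.02 CPM in NR-treated and 437 ± 28.4 CPM in non-treated mice (SD, n = 5 each) (log2 fold change 0.03 ± 0.06 (SE), edgeR adjusted p = 0.903). Of 15 metabolic genes 4 were higher, among them the muscle phosphoglycerate mutase Pgam2 (log2 fold change 1.28 ± 0.42 (SE), edgeR adjusted p = 0.436), Cox6a2 (log2 fold change 2.99 ± 1.04 (SE), edgeR adjusted p = 0.451) and the glucose transporter Slc2a4 (log2 fold change 0.43 ± 0.17 (SE), edgeR adjusted p = 0.476). Aldoa, the most abundant of these, had 1601 ± 72.4 CPM in NR-treated and 1462 ± 77.5 CPM in non-treated mice (SD, n = 5 each).

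Genes of muscle precursors and of the nerve-muscle contact were listed as well. Of 4 tested myogenic genes 0 were higher and 1 was lower, Pax3, a factor of muscle and neural crest precursors (log2 fold change -0.88 ± 0.28 (SE), edgeR adjusted p = 0.434). The other listed genes did not pass the filter. In the fit of every gene with a read, Myf6 (30 reads, log2 fold change 4.35 ± 1.53 (SE), edgeR adjusted p = 0.592), Pax7 (22 reads, log2 fold change 2.13 ± 0.80 (SE), edgeR adjusted p = 0.618) and Myog (28 reads, log2 fold change 1.58 ± 0.71 (SE), edgeR adjusted p = 0.633) were higher at an unadjusted p of 0.05. The rest of these were not called. NR 3 and NR 5 were the 2 highest for Myf6 and Myog but not Pax7. Of 8 tested endplate genes 0 were called. In the dystrophin complex 1 of 6 was higher (Dysf, log2 fold change 0.26 ± 0.10 (SE), edgeR adjusted p = 0.464) and 1 lower (Sntb1, log2 fold change -0.45 ± 0.15 (SE), edgeR adjusted p = 0.434), and of 4 muscle ubiquitin ligases 1 was lower (Fbxo32, log2 fold change -0.43 ± 0.19 (SE), edgeR adjusted p = 0.497).

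Markers of other tissues were set beside these values. Heart markers summed to 104 to 142 CPM in the NR-treated and 104 to 146 CPM in the non-treated mice, with 0 of 7 tested markers called, and the atrial genes Myl7, Nppa and Nppb had 17, 29 and 16 reads over all mice. Smooth muscle markers summed to 283 to 347 CPM and 273 to 389 CPM, with 0 of 10 called. In NR 3 and NR 5 the sum was 108 and 104 CPM for the heart list and 338 and 315 CPM for the smooth muscle list, inside the range of the other mice or at its edge. The most abundant heart gene, Myh7b, had 65.3 ± 14.0 CPM in NR-treated and 76.4 ± 26.6 CPM in non-treated mice (SD, n = 5 each). NR 3 and NR 5 held the 2 highest values for 2 of the 7 tested heart markers (3 of the 12 listed). They did so for 1 of the 10 smooth muscle markers and for 4.02% of all genes tested.

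Adipocyte markers summed to 112, 206, 128, 97.9 and 126 CPM in NR 1 to NR 5 and 86.6, 70.2, 69.9, 93.7 and 76.8 CPM in Vehicle 1 to Vehicle 5. Of the 9 tested markers 5 were higher at an unadjusted p of 0.05, where 4.83% of all genes were. All NR-treated mice lay above all non-treated mice in that sum. Among single genes this order was found in 3 of the 9 markers and in 0.769% of all genes. NR 2 was the highest in the sum, and NR 3 and NR 5 held the 2 highest values for 0 of the 9. Bone markers summed to 1859.7, 452, 654, 1018 and 1286 CPM and 743, 539, 442, 244 and 369.9 CPM. Of the 7 tested, 1 was higher at an unadjusted p of 0.05, where 4.83% of all genes were, and their median log2 fold change was 0.004. The called marker was Col1a1, which made up much of the sum. It had 818 ± 479 CPM in NR-treated and 244 ± 141 CPM in non-treated mice (SD, n = 5 each) (log2 fold change 1.74 ± 0.48 (SE), edgeR adjusted p = 0.408).

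Cochlear markers summed to 3264, 4984, 3562, 3678 and 3375 CPM in NR 1 to NR 5 and 4278, 3546, 6559, 5814 and 4292 CPM in Vehicle 1 to Vehicle 5, with 6 of 13 lower at an unadjusted p of 0.05, where 4.88% of all genes were. NR 3 and NR 5 were among the lower mice of this sum, beside NR 1, NR 4 and Vehicle 2. The part of adipocyte, bone and cochlear tissue in the levels of the fiber genes was not tested.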

How the data were processed

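RNA-seq of the cochlea of 10 mtKeima mice (5 NR-treated, 5 non-treated) was analysed. The authors deposited whole-number counts of reads on genes, obtained by Novogene from poly(A) libraries with STAR version 2.6.1d on mm10, allowing 2 mismatches, and featureCounts version 1.5.0 in default mode, so that strand was not used and reads at several places or genes were not counted. Per the submitters' processing notes fastp and CASAVA were also used. The annotation release was not given in the sources used here, and 34 of the 35 members had the same start and end in GENCODE M21, which was used for exon overlap. Groups came from the labels. The labels name no batch, and no 2 libraries agreed within counting noise.

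Counts of 54532 genes were tested as deposited with edgeR version 4.0.16 (R version 4.3.3, filterByExpr, TMM, glmQLFit and glmQLFTest, no covariate), which left 18329 genes, with Benjamini-Hochberg adjustment over all of them. Members that did not pass the filter were tested in a fit of the 33224 genes with at least 1 read. CPM used TMM library sizes, and log2 CPM for the exact permutation tests a prior count of 2. Adjusted p-values are from edgeR, or from DESeq2 version 1.42.0 or limma version 3.58.1 (voom) where named. CPM per kb divides by the exon length in the files. Alternatives were other tests, scalings, filters and dispersions, a replicate block, and leaving out each mouse. Leaving out NR 3 and NR 5, with and without Vehicle 1, and leaving Mybpc1 out of the slow sum were added after seeing the data.

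The members and lists were chosen with earlier results of these data known. Every member was accounted for, with full values for those at an unadjusted p of 0.05, the most abundant of each role and the myosin heavy chains. Of each further muscle list up to 3 tested genes with the smallest p and the most abundant gene could be named, and of marker lists the most abundant and the absent genes. Myom3 was named in addition, after its values were seen. Genes of the further muscle lists that did not pass the filter were added afterwards. They were named where they passed the unadjusted threshold in the fit of every gene with a read. Protein sequences were not used here.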

Additional observations from a re-analysis of the deposited data

Results flagged for a closer look

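In each group of 5 mice, the highest and the lowest value of every fiber gene were compared with the rest by Dixon's criterion, and 16 of the 70 groups held a mouse that stood apart. Chance flags about 1 in 20 groups, and the genes share their libraries. Of these, 11 were Vehicle 1 above the other non-treated mice. They were the fast myosin genes Myh1 (14.1 CPM), Myh2 (2.13 CPM), Myh4 (14.3 CPM) and Mylpf (9.28 CPM), the troponins Tnni2 (3.48 CPM) and Tnnt3 (10.7 CPM), the actin Acta1 (12.2 CPM), titin Ttn (9.38 CPM), the calcium release channel Ryr1 (3.82 CPM), the calcium pump Atp2a1 (17.1 CPM) and creatine kinase Ckm (3.48 CPM).

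NR 5 stood apart among the NR-treated mice for Myh4 (90.2 CPM) and Actn3 (7.87 CPM). NR 3 and NR 5 together did not meet the criterion for other genes, since it compares 1 mouse with its nearest neighbour. The other flags were at low counts. They were Tnnc2 in NR 2 (0.179 CPM) and Vehicle 3 (0.0405 CPM), where 7 reads were counted in all 10 mice, and Myl2 in NR 1 (1.06 CPM).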

How the results depend on the processing

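Of the 15 members higher at an unadjusted p of 0.05, all were called again with DESeq2, with its size factors in edgeR, with library sizes and TMM factors computed without muscle genes, with both other filters and with a robust dispersion, and the total was 15 to 18. The adjusted threshold was passed by 3 members with DESeq2 and 0 in the other fits. With limma-voom 1 member was higher (5.13% of all genes were). The correlation of deviations between same-numbered mice lay between -0.22 and 0.17. This shows little shared deviation but cannot show that the replicate numbers carry no pairing. With the replicate number as a block 2 of 30 members were higher, where 4.8% of all genes were, while the log2 fold changes of the 15 were positive in that fit as well (0.82 to 4.91). The cause of these lower counts was not tested. Leaving out each mouse in turn gave 11 (without NR 5, where 4.22% of all genes were higher) to 19 (without NR 1, 4.18%) members higher and 0 to 1 lower, while the share of all genes higher ran from 3.62% (without NR 3, 12 members) to 7.61% (without NR 2, 18 members), with 0 at the adjusted threshold, and a median log2 fold change of 0.51 (without NR 5) to 1.52 (without NR 4). Without NR 3 and NR 5, 0 were higher and 1 lower, the median was 0.0008, and the log2 fold change turned to -0.25 for Atp2a1 and -0.014 for Casq1. Without Vehicle 1 as well, 7 were higher and 1 lower, which follows in part from the choice of Vehicle 1 by its levels of the same members. The medians of the log2 fast to slow ratio were 1.45 (NR) and 0.18 (Vehicle) from summed CPM, 2.16 and -0.20 from mean log2 levels, and 3.68 and 2.68 from summed CPM without Mybpc1, a way added after seeing the data. Myh7 and Myh3 could not be compared at this depth, with 12 and 27 reads in all, nor could Tnnc2 with 7.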

Other observations

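Over the 18329 genes that passed the filter, 33 had at least 1 CPM in NR 3 and NR 5 and at least 2 times the level of every other mouse in both. Of these, 16 were fiber genes named above and 7 were in the further skeletal muscle lists (Myoz1, Cox6a2, Nrap, Hrc, Klhl41, Myom2 and Pgam2). The marker lists of heart, smooth muscle, adipocytes, bone and cochlea held 0 of them. Genes that did not pass the filter were not counted. Among these, Cacna1s, Cacng1, Sln and Lmod2 of the further muscle lists also met both limits. Cacna1s was at 5.67 CPM in NR 3, 6.08 CPM in NR 5 and at most 0.794 CPM in the other mice. The 2 mice had been picked by the levels of the fiber genes, so the count of 16 follows in part from that choice.

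The other 10 were in no list and were named after their values were seen. Scn4a, the voltage-gated sodium channel of skeletal muscle, was at 3.07 CPM in NR 3 and 2.89 CPM in NR 5 and at most 0.943 CPM in the other mice. Cmya5, a muscle protein of the Z-disc region, was at 15.7 CPM in both and at most 3.53 CPM elsewhere. Mylk2, the myosin light chain kinase of skeletal muscle, was at 2.77 and 3.13 CPM and at most 1.03 CPM elsewhere. Mylk4 was at 3.42 CPM in NR 3 and 12.7 CPM in NR 5, so that these mice also differed from each other. The remaining 6 were Alpk3, Asb10, Cavin4, Txlnb, Mypn and Mylf-ps.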
